A study of Meleagris gallopavo with 24 samples.

Results

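The collagens and the enzymes that fold, trim, cross-link and degrade them were followed in heart and liver of turkeys (Meleagris gallopavo) fed salinomycin (Sal), an ionophore given to poultry against coccidia. Members were all genes of the deposited table whose symbol belongs to the collagens (COL), prolyl 3-hydroxylases (P3H), prolyl 4-hydroxylases (P4HA), lysyl hydroxylases (PLOD), lysyl oxidases (LOX, LOXL), the collagen chaperone SERPINH1, the procollagen proteinases and their enhancers (BMP1, PCOLCE), the secreted proteases ADAMTS and MMP, their inhibitors TIMP, or CTHRC1. This rule found 31 of the 11587 genes in the table: 1 fibrillar collagen (COL5A2), 3 basement-membrane collagens (COL4A1, COL4A2 and COL4A6), 5 other collagens (COL6A2, COL6A3, COL13A1, COL14A1 and COL17A1) and 22 enzymes and inhibitors. The type I collagen genes and a full gene model of COL3A1 are not analysed here. The Sal-exposed birds were females that received 21 mg Sal per kg feed during weeks 12 and 13, an estimated 0.9 mg per kg body weight per day, and the control birds received feed without Sal. All birds had eaten Sal-free feed before, were kept 4 to a pen and were sampled in week 13. RNA-seq was made from pieces of whole heart and whole liver of 6 Sal-exposed and 6 control birds, so each value is a sum over all cells of the piece.

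Collagens are proteins of 3 chains wound into a helix. Fibrillar collagens (types I, III and V among them) form the tension-bearing fibres between cells, type IV collagen forms the sheet under endothelium and epithelium and around muscle fibres, and type VI collagen forms fine beaded filaments next to that sheet. New chains are hydroxylated by P4HA and P3H enzymes and PLODs and are held by SERPINH1 (HSP47) in the endoplasmic reticulum, after which proteinases such as ADAMTS14 trim the ends of fibrillar procollagens and LOX enzymes cross-link the fibres. In liver, stellate cells, portal fibroblasts and sinusoidal endothelium are the usual sources of matrix, and in heart, fibroblasts, vessel cells and, for type IV collagen, the muscle cells themselves.

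The 12 heart libraries held 23372118 to 35979378 counts, of which 48.3% to 86.9% came from mitochondrial genes, and the 11 liver libraries used held 15706646 to 31305782 counts. Liver control library 3 had 3729229 counts and was left out of all comparisons. Hepatocyte markers summed to 166477 to 244897 CPM (counts divided by the library total in mega, scaled by TMM) in Sal-exposed livers and 169602 to 269551 CPM in control livers, and cardiomyocyte markers to 10835 to 57239 CPM in Sal-exposed hearts and 10325 to 21554 CPM in control hearts, so each tissue carried its own markers. The library of heart Sal 1 stood apart, with 57239 CPM of cardiomyocyte markers against at most 21554 CPM in any other heart, and heart calls are given with and without it. These markers did not move together: by group mean MYL3, TNNC1, TNNT2 and CSRP3 were higher in Sal-exposed hearts, and ACTN2, RYR2 and LDB3 lower. MYL3 averaged 9863 CPM in Sal-exposed and 5012 CPM in control hearts, and RYR2 158 and 296 CPM. These means include heart Sal 1, while the other Sal-exposed hearts had summed markers of 10835 to 18744 CPM. Of 7 cardiomyocyte markers tested in heart, 0 were called. In liver, summed markers of endothelium did not overlap between groups (64.9 to 94.5 CPM in Sal-exposed and 32.7 to 46.9 CPM in control livers, 5 of 8 listed genes in the table, none at 0 in a group), while those of fibroblasts and stellate cells did (38.7 to 147 CPM in Sal-exposed and 20.5 to 78.8 CPM in control livers, 8 of 10 listed genes). Enterocyte markers, at 454 to 759 CPM in Sal-exposed livers and 2205 to 19396 CPM in control livers, also did not overlap (10 of 11 listed genes, CDX2 at 0 in Sal-exposed livers).

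The comparison of Sal-exposed with control birds asked which members differed with Sal in each tissue. In liver, 25 of the 31 members had enough counts to be tested, and 7 passed an adjusted p of 0.05 with a log2 fold change of at least 1, of which 6 rose and 1 fell. Over all 10269 genes tested in liver 8.36% passed (5.27% rose and 3.09% fell). All 3 basement-membrane collagens rose, with COL14A1, the chaperone SERPINH1 and the protease ADAMTS13, and COL6A2 fell. The median log2 fold change of the 25 members was 0.98 and that of all genes tested was 0.03. The 6 members not tested in liver were COL17A1, ADAMTS17, ADAMTS19, ADAMTS20, MMP13 and MMP17. In a whole-tissue library, more cells of a type and more RNA per cell cannot be told apart.

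COL4A6 encodes the α6 chain of type IV collagen, which pairs with α5 chains in the basement membranes of smooth muscle and some epithelia. The row counted (ENSMGAG00000006631) lies on chromosome 9 of Turkey_5.1 at 13925718 to 13964672 and spans 44.9% of the COL4A6 gene in RefSeq, so part of the transcript may not have been counted. It was the member that the study measured again by RT-qPCR, and the designed primers are shown because they fix which transcript was amplified, in lower case and 5′ to 3′. Their place in the gene was not looked up here.
COL4A6 forward primer: caggaccaaaagggctggat
COL4A6 reverse primer: tcccttgatgcccaaaggac

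COL4A6 had 5.26, 2.78, 2.17, 3.87, 3.18 and 5.65 CPM in the 6 Sal-exposed livers, against 0, 0.0474, 0, 0.0922 and 0.281 CPM in control livers 1, 2, 4, 5 and 6. All Sal-exposed livers lay above all control livers, where the reads summed to 8 in 5 libraries against 606 in the Sal-exposed livers. Only control liver 6 exceeded the CPM that 3 reads would give, which was 0.111 to 0.169 CPM in these controls. That floor follows library depth alone. The 5 control livers had counts for 9268 to 11055 genes, against 10918 to 11350 in Sal-exposed livers, so zeros in control livers are less sure than the floor implies. The log2 fold change was 5.52 ± 0.80 (SE, adjusted p = 0.00127), and since it rests on so few control reads its size is loose. It stayed between 5.17 and 6.63 when each library was left out, with an adjusted p of at most 0.00621.

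**Figure D1:**
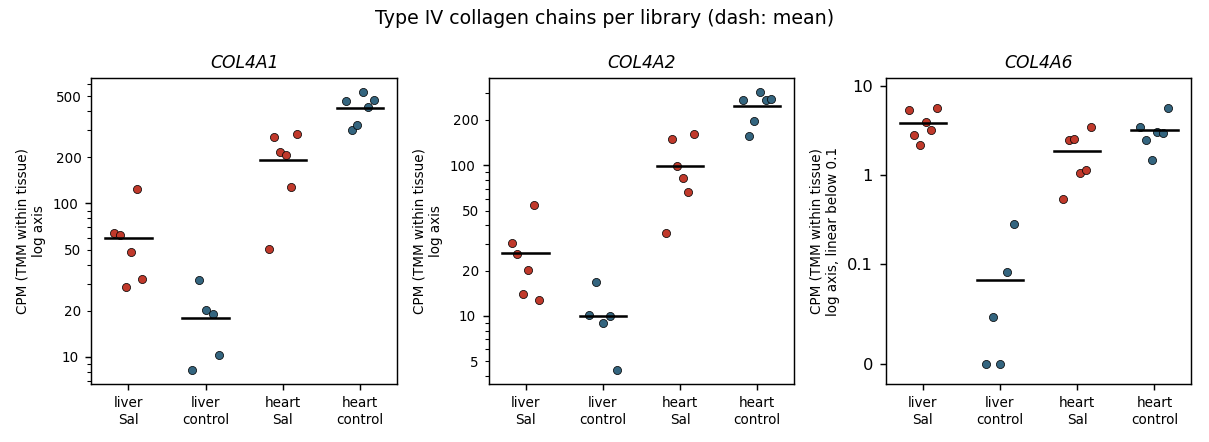
CPM (log axis, linear below 0.1 for COL4A6) of the type IV collagen genes COL4A1, COL4A2 and COL4A6 in each library, with Sal-exposed liver, control liver, Sal-exposed heart and control heart from left to right and a dash at each group mean. COL4A6 averaged 3.82 CPM in Sal-exposed livers and 0.0842 CPM in control livers, while in hearts it averaged 1.85 CPM with Sal and 3.16 CPM in controls.

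COL4A1 and COL4A2 encode the α1 and α2 chains, which make the type IV collagen found in nearly every basement membrane. Their rows are head to head neighbours on chromosome 1 (COL4A1 at 135026846 to 135137734 and COL4A2 at 135137451 to 135278105) that overlap at their ends, and it is not stated whether strand was used in counting, so reads in the overlap could belong to either. COL4A1 had 64.2, 62.3, 28.6, 48.6, 124 and 32.0 CPM in Sal-exposed livers, against 8.23, 31.8, 20.2, 19.1 and 10.3 CPM in control livers. Sal 5 was the highest library, and the groups overlapped only in that Sal 3 lay below control 2. The log2 fold change was 1.74 ± 0.41 (adjusted p = 0.0138). COL4A2 had 30.5, 25.9, 14.0, 20.3, 54.4 and 12.8 CPM in Sal-exposed livers, against 10.2, 16.8, 8.93, 10.05 and 4.39 CPM in control livers, with the same library at the top. Its log2 fold change was 1.39 ± 0.39 (adjusted p = 0.0293), and this call was lost when Sal 1, Sal 2, Sal 5, control 4 or control 5 was left out (adjusted p up to 0.0690). Both calls, and that of SERPINH1, were also lost without control livers 1 and 6 together, an alternative chosen after seeing the data (adjusted p = 0.0547 for COL4A1, with 4.01e-06 to 0.0547 over all alternatives). With liver control 3 included, COL4A2, COL14A1, SERPINH1 and ADAMTS13 were not called, and 3 members remained called (COL4A1, COL4A6 and COL6A2).

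The summed endothelial markers were also higher in Sal-exposed livers. Of 5 tested endothelial markers PECAM1 and TIE1 were called higher, as was PDGFRB of 5 tested fibroblast and stellate markers. Over all genes tested 5.27% rose. By group mean PDGFRB, DCN, LUM, DPT, RGS5 and LRAT of the fibroblast and stellate list were higher in Sal-exposed livers. DCN averaged 65.6 CPM in Sal-exposed and 48.6 CPM in control livers, and PDGFRB 5.50 and 0.536 CPM. Only PDGFRA (0.243 CPM in Sal-exposed and 0.362 CPM in control livers) and THY1 (0.0341 and 0.0864 CPM) averaged lower with Sal, both at low levels. CSF1R of 6 tested leucocyte markers rose, and 6 of 8 tested enterocyte markers fell, beside 3.09% of all genes tested. The part of these cell types in the rise of the type IV collagen genes was not tested. The summed cardiomyocyte markers were also higher in Sal-exposed livers (30.99 to 56.8 CPM, against 3.15 to 25.1 CPM in control livers, 7 of 10 listed genes, RYR2 at 0 in the controls). This sum was carried by LDB3, which averaged 28.2 CPM in Sal-exposed and 6.20 CPM in control livers. LDB3 was the only cardiomyocyte marker called of 6 tested in liver. On the common scale of both tissues, these markers summed on average to 40.7 CPM in Sal-exposed livers and 13955 CPM in control hearts. COL4A6 averaged 3.64 CPM in Sal-exposed livers and 3.30 CPM in control hearts. The source of the COL4A6 reads in liver was not tested.

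The other collagens of liver did not share a direction. COL14A1, a fibril-associated collagen that sits on the surface of fibres, had 15.7, 7.16, 3.51, 9.23, 14.1 and 3.51 CPM in Sal-exposed livers, against 4.43, 1.80, 2.45, 2.26 and 2.31 CPM in control livers. The log2 fold change was 1.74 ± 0.43 (adjusted p = 0.0164), and the groups overlapped only through control 1, which stood apart from the other controls. This call was lost with limma-voom (adjusted p 4.88e-05 to 0.0939 over all alternatives). COL6A2, the α2 chain of type VI collagen, had 19.9, 12.4, 5.18, 9.54, 19.4 and 11.3 CPM in Sal-exposed livers, against 27.2, 41.9, 21.9, 29.8 and 22.7 CPM in control livers. All Sal-exposed livers lay below all controls, a 2.21-fold lower level (log2 fold change -1.15 ± 0.30, adjusted p = 0.0231). The fall was lost with scaling by library size alone (adjusted p = 0.104, over all alternatives 0.00149 to 0.104) and when any of Sal 2, Sal 3, Sal 4, control 2 or control 5 was left out (log2 fold change -1.31 to -0.97, adjusted p at most 0.0526).

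COL6A3, the α3 chain of the same collagen, gave another picture. It had 9.22, 2.78, 2.09, 3.29, 3.89 and 2.85 CPM in Sal-exposed livers, against 7.71, 3.51, 4.37, 2.67 and 0.900 CPM in control livers, with a log2 fold change of 0.06 ± 0.49 (adjusted p = 0.947). The log2 ratio of COL6A2 to COL6A3 reads averaged 1.73 ± 0.49 in Sal-exposed livers and 3.14 ± 1.09 in control livers (SD, n = 6 and 5). This difference of -1.42, chosen after its values were seen, had p = 0.0260 in a two-sided exact permutation test (smallest possible 0.00433) and 0.104 after adjustment over 4 such ratios, so it did not pass. COL6A1, which makes up type VI collagen with them and was named from its RefSeq position, had 3.24 to 8.14 CPM in Sal-exposed livers and 0 to 5.33 CPM in control livers (log2 fold change 1.12 ± 0.67, adjusted p = 0.274).

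Of the remaining collagens, COL5A2 (type V, a regulator of fibre width, of which the row covers 14.5% of the RefSeq span) had 10.6 to 18.8 CPM in Sal-exposed livers. Control livers 1, 4, 5 and 6 had 5.30 to 6.86 CPM and control 2 had 23.2 CPM. With control 2 the log2 fold change was 0.54 ± 0.36 (adjusted p = 0.333), and without it 1.18 (adjusted p = 0.00445), so by edgeR this 1 library decided the call. By limma-voom with quality weights COL5A2 was called higher with control 2 included, beside 1458 of all 10269 genes called by that tool. The edgeR fit without control 2 called 1269 of all 10427 genes tested. COL13A1, a collagen anchored in the cell membrane whose row covers 37.1% of the RefSeq span, had 5.79 to 16.7 CPM in Sal-exposed and 5.71 to 14.2 CPM in control livers (adjusted p = 0.282). COL17A1, a membrane collagen of epithelial anchoring junctions, was at or under 0.0450 CPM in every Sal-exposed liver, against 5.91 CPM in control 1, 0.599 CPM in control 5 and 0 in the other controls, and was not tested.

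**Figure D2:**
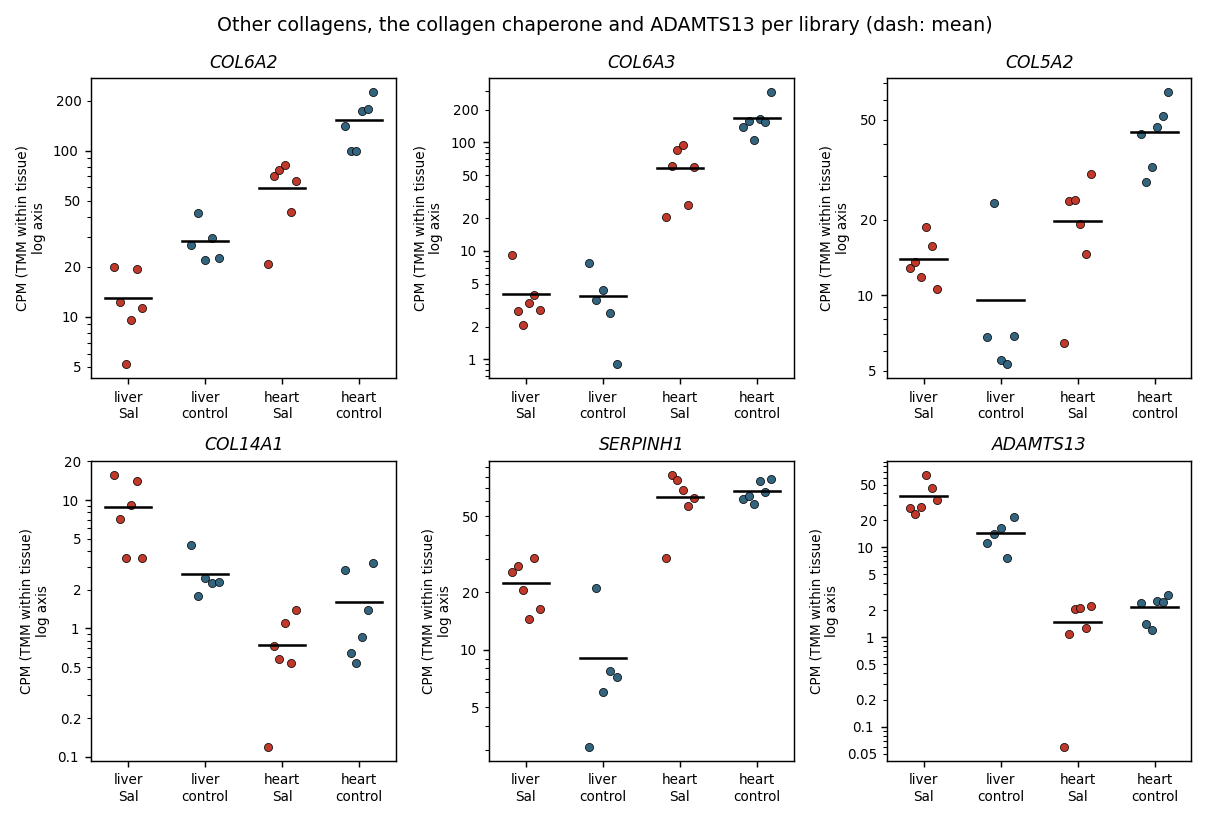
CPM (log axes) of COL6A2, COL6A3, COL5A2, COL14A1, SERPINH1 and ADAMTS13 in each library, groups from left to right as Sal-exposed liver, control liver, Sal-exposed heart and control heart, with a dash at each group mean. COL6A2 averaged less with Sal than in controls in both tissues, while SERPINH1 averaged 22.4 CPM in Sal-exposed and 9.02 CPM in control livers but 62.9 CPM and 67.4 CPM in Sal-exposed and control hearts.

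Among the genes that modify and carry new chains, SERPINH1 rose in liver. It had 25.5, 27.3, 20.5, 14.5, 30.0 and 16.4 CPM in Sal-exposed livers, against 3.1, 21.1, 6.00, 7.74 and 7.20 CPM in control livers, where control 2 stood apart at the level of the Sal-exposed birds. The log2 fold change was 1.31 ± 0.39. Its adjusted p of 0.0366 was the highest among the 7 calls, and 8 of the 11 fits with 1 library left out lost it (log2 fold change 1.09 to 1.90, adjusted p 0.00173 to 0.0875). The SERPINH1 row covers 73.2% of the RefSeq span and overlaps an unnamed gene model, so its level is uncertain. P3H2, which hydroxylates prolines of type IV collagen in particular, had 3.55 to 7.33 CPM in Sal-exposed livers and 1.74 to 3.51 CPM in control livers without overlap. Its log2 fold change of 0.98 ± 0.30 met the adjusted p (0.0439) and stayed just under the fold threshold. P3H2 was called by DESeq2 with surrogate variables and by edgeR without Sal 3, control 2 or control 4. Over all genes tested these fits called 2435, 680, 1269 and 998 in that order. P4HA1, the catalytic subunit of prolyl 4-hydroxylase, had 5.69 to 8.16 CPM in Sal-exposed and 2.56 to 8.49 CPM in control livers (log2 fold change 0.22, adjusted p = 0.640).

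The genes that act outside the cell on trimming and cross-linking gave no call in liver by edgeR with all 11 libraries. ADAMTS14, which removes the N-terminal end of fibrillar procollagens, had 0.741 to 2.79 CPM in Sal-exposed livers and 0 to 0.522 CPM in control livers without overlap (log2 fold change 2.79 ± 0.96, adjusted p = 0.0628). It was called by DESeq2, with and without surrogate variables, by limma-voom and by edgeR without control 2 (adjusted p 5.71e-06 to 0.146 over all alternatives). Over all genes tested these fits called 2435, 1196, 1458 and 1269 in that order. Of the cross-linking enzymes, LOXL3 had 7.25 to 17.4 CPM in Sal-exposed and 2.14 to 10.05 CPM in control livers (adjusted p = 0.132). LOXL1 had 1.25 to 3.71 CPM in Sal-exposed and 1.52 to 5.47 CPM in control livers (adjusted p = 0.719). The LOXL3 row is LOXL3 over only 42.04% of its length, so its counts are uncertain.

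ADAMTS13, the protease that cuts von Willebrand factor and does not act on collagen, was the other enzyme that rose in liver. It had 27.6, 23.7, 28.3, 64.2, 46.1 and 33.8 CPM in Sal-exposed livers, against 11.3, 14.0, 16.6, 7.65 and 22.0 CPM in control livers, with no overlap. The log2 fold change was 1.38 ± 0.30 (adjusted p = 0.0101), and leaving out any 1 library kept the call. In all, 5 tested members (COL4A6, COL6A2, P3H2, ADAMTS13 and ADAMTS14) had groups that did not overlap in liver, against 10.1% of all genes tested.

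The remaining ADAMTS proteases, which cut proteoglycans or have few known substrates, the matrix metalloproteinases and the inhibitors gave no further call by edgeR with all 11 libraries. DESeq2 with surrogate variables called ADAMTS8, ADAMTS9, ADAMTS15, MMP9 and TIMP4, and limma-voom called ADAMTS9 and TIMP4, all higher with Sal. Over all 10269 genes these tools called 2435 and 1458 in that order. Of the inhibitors, TIMP3, which stays bound to the matrix, had 16.8 to 33.8 CPM in Sal-exposed livers and 9.08 to 25.4 CPM in control livers. Its log2 fold change of 0.98 ± 0.28 met the adjusted p (0.0338), as 7.36% of all genes tested did while higher with Sal. It stayed just under the fold threshold, which it passed without Sal 1, Sal 4 or control 5. Those fits called 624, 633 and 581 of all genes tested in that order. TIMP4 had 0.234 to 0.630 CPM in Sal-exposed livers and was 0 in 4 of the 5 control livers, with 0.281 CPM in control 6 (log2 fold change 3.02 ± 1.18, adjusted p = 0.0977). ADAMTS9 had 7.35 to 17.5 CPM in Sal-exposed and 2.73 to 12.5 CPM in control livers (adjusted p = 0.126). ADAMTS1, ADAMTS8, ADAMTS12 and ADAMTS15 had adjusted p between 0.352 and 0.727. Among the metalloproteinases the adjusted p was 0.285 for the gelatinase MMP9, 0.807 for MMP24 and 0.967 for MMP11. The MMP11 row also spans SMARCB1, and the TIMP4 row covers 16.5% of the RefSeq span, so both levels are uncertain.

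**Figure D3:**
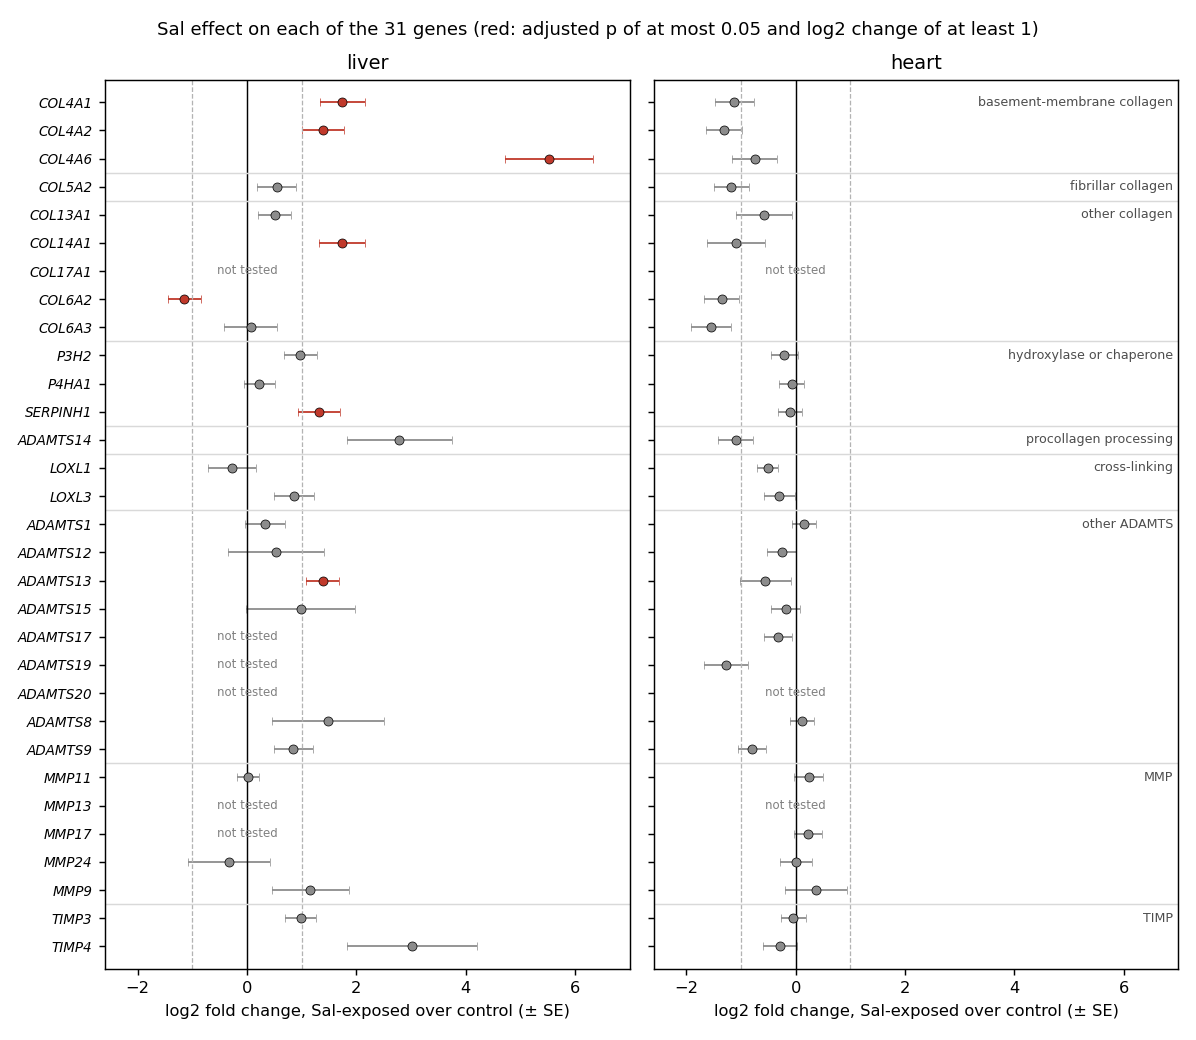
Log2 fold change of Sal-exposed against control birds with its approximate standard error for the 31 members, liver in the left panel and heart in the right, red where the test passed and marked where a member was not tested. In liver 22 of the 25 tested members lie above 0, beside 5324 of all 10269 genes tested. In heart 22 of the 28 tested members lie below 0, beside 4993 of all 10265 genes tested.

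In heart, 28 of the 31 members were tested and none passed by edgeR, against 0.994% of all 10265 genes tested (102 genes, of which 92 or 0.896% were lower). At an unadjusted p under 0.05 there were 9 members, all lower in Sal-exposed hearts, against 17.3% of all genes tested (8.45% lower). The log2 fold change was -1 or lower in 8 members, against 4.03% of all genes tested. The median log2 fold change was -0.31 over the 28 members, -1.15 over the 8 collagens among them and -0.20 over the 20 enzymes and inhibitors, and that of all genes tested was 0.01. By other tools on the same libraries, DESeq2 called 7 members lower (COL4A1, COL4A2, COL5A2, COL6A2, COL6A3, ADAMTS14 and ADAMTS19), limma-voom with quality weights 5, and DESeq2 with surrogate variables 1 (COL6A3), beside 301, 404 and 309 of all 10265 genes by these tools in that order.

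Of the 28 members tested, the type VI collagen genes COL6A3 and COL6A2 had the largest differences in heart. COL6A3 had 20.3, 61.1, 84.8, 94.0, 26.6 and 58.99 CPM in Sal-exposed hearts, against 139.9, 157, 106, 165, 155 and 291 CPM in control hearts. COL6A2 had 20.7, 70.2, 76.0, 81.9, 42.9 and 65.2 CPM in Sal-exposed hearts, against 139.6, 100.02, 98.7, 173, 177 and 225 CPM in control hearts. For both genes every Sal-exposed heart lay below every control heart. The log2 fold changes were -1.55 ± 0.37 for COL6A3 (adjusted p = 0.0650) and -1.36 ± 0.32 for COL6A2 (adjusted p = 0.0637). COL6A1, named by position, had -1.38 ± 0.35 (adjusted p = 0.0836), with 13.6 to 61.5 CPM in Sal-exposed and 64.7 to 180.5 CPM in control hearts. The log2 ratio of COL6A2 to COL6A3 reads averaged 0.12 in Sal-exposed and -0.14 in control hearts (exact permutation test, adjusted p = 0.251).

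Type IV collagen genes of the heart lay in the same direction. COL4A1 had 50.3, 270.5, 218, 206, 128 and 283 CPM in Sal-exposed hearts, against 467, 301, 325, 531, 423 and 472 CPM in control hearts, again without overlap (log2 fold change -1.12 ± 0.36, adjusted p = 0.163). COL4A2 had 35.3, 149.98, 99.1, 82.7, 66.4 and 160.3 CPM in Sal-exposed hearts, against 269, 155, 198, 305, 271 and 276 CPM in control hearts (log2 fold change -1.31 ± 0.34, adjusted p = 0.0839). Only Sal 6 reached above the lowest control for COL4A2. COL4A6 had 0.535 to 3.42 CPM in Sal-exposed and 1.45 to 5.64 CPM in control hearts (log2 fold change -0.75 ± 0.41, adjusted p = 0.350).

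The fibrillar COL5A2 had 6.42, 23.7, 23.96, 19.2, 14.5 and 30.5 CPM in Sal-exposed hearts, against 43.9, 28.2, 32.4, 46.9, 51.7 and 64.6 CPM in control hearts (log2 fold change -1.18 ± 0.32, adjusted p = 0.0987). Only Sal 6 lay above the lowest control. A row with no symbol that lies inside COL5A1, the other chain of type V collagen (ENSMGAG00000006984, chromosome 19, 7377223 to 7389331), was called lower in heart. It had 1.49 to 3.94 CPM in Sal-exposed hearts and 5.78 to 12.1 CPM in control hearts (log2 fold change -1.51 ± 0.28, adjusted p = 0.0149). A short row inside COL3A1 (ENSMGAG00000021673) had 1.84 to 10.7 CPM in Sal-exposed and 6.23 to 29.8 CPM in control hearts (log2 fold change -1.71 ± 0.41, adjusted p = 0.0650). These rows are fragments of the genes. Of 8 unnamed rows inside genes of these families, 6 were tested in heart and the COL5A1 row was the 1 called, beside 0.994% of all genes tested. In liver 5 of these rows were tested and 0 were called, beside 8.36% of all genes tested. For liver minus heart 7 were tested and 2 called, both more positive in liver, beside 16.6% of all genes tested. They were the COL3A1 row (3.71 ± 0.86, adjusted p = 0.00588) and the COL5A1 row (1.97 ± 0.64, adjusted p = 0.0337).

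Among heart enzymes, the procollagen proteinase ADAMTS14 had 0.631 to 1.62 CPM in Sal-exposed and 1.29 to 3.49 CPM in control hearts (log2 fold change -1.10 ± 0.32, adjusted p = 0.122). ADAMTS19 had 0.297 to 2.20 CPM in Sal-exposed and 2.37 to 3.90 CPM in control hearts without overlap (log2 fold change -1.28 ± 0.40, adjusted p = 0.156). LOXL1, which cross-links elastin and collagen, had 14.9 to 19.96 CPM in Sal-exposed and 17.8 to 37.6 CPM in control hearts (log2 fold change -0.52, adjusted p = 0.216). The chaperone and hydroxylases were close to their controls, with log2 fold changes of -0.10 ± 0.22 for SERPINH1, -0.08 ± 0.22 for P4HA1 and -0.21 ± 0.25 for P3H2. Those of the inhibitor TIMP3 (-0.05 ± 0.23) and the metalloproteinases MMP11 (0.23 ± 0.26) and MMP24 (0.00 ± 0.30) were also within 1 SE of 0. The fibril-associated COL14A1 had 0.119 to 1.39 CPM in Sal-exposed and 0.536 to 3.26 CPM in control hearts (log2 fold change -1.09 ± 0.53, adjusted p = 0.305), and ADAMTS9 had 10.45 to 27.4 CPM in Sal-exposed and 18.4 to 39.8 CPM in control hearts (-0.80 ± 0.25, adjusted p = 0.157). The other tested members, COL13A1, LOXL3, TIMP4, MMP9, MMP17 and ADAMTS1, 8, 12, 13, 15 and 17, had adjusted p between 0.489 and 0.781. COL17A1, MMP13 and ADAMTS20 were too low to be tested. ADAMTS20 had 4.51 CPM in Sal 1 and 4.18 CPM in Sal 6, against at most 0.202 CPM in the other Sal-exposed and 0.552 CPM in the control hearts.

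Counted over the tested members, 4 in heart had groups that did not overlap (COL4A1, COL6A2, COL6A3 and ADAMTS19), all lower with Sal, against 2.68% of all genes tested. Heart Sal 1 was the lowest of the 12 libraries for 21 of the 28 tested members (75%), against 33.45% of all genes tested. Without it, 3 members were called, all lower, beside 132 of all 10385 genes tested in that fit. They were COL6A3 (log2 fold change -1.37, adjusted p = 0.0451), COL6A2 (-1.18, adjusted p = 0.0276) and COL4A2 (-1.14, adjusted p = 0.0454). The median log2 fold change of the members was -0.15 without heart Sal 1 and -0.31 with it. COL4A1 (-0.92) and COL5A2 (-0.99) were also less lowered without it. COL6A3 was also called without Sal 4 (-1.74, adjusted p = 0.0418), as 134 of all 10355 genes tested were in that fit. Over all fits with 1 library left out the adjusted p of COL6A3 ran from 0.0418 to 0.178. Without the 3 hearts in which over 80% of counts were mitochondrial, a set chosen after seeing the data, COL6A2 and COL6A3 were called. In that fit 288 of all 10436 genes tested were called. Summed fibroblast markers overlapped between the groups (244 to 469 CPM in Sal-exposed and 348 to 531 CPM in control hearts, 8 of 10 listed genes, LRAT at 0 in Sal-exposed hearts). Within this list PDGFRB averaged 15.7 CPM in Sal-exposed and 38.4 CPM in control hearts, and PDGFRA 5.16 and 9.63 CPM. DCN, LUM and THY1 also averaged lower with Sal, RGS5 and DPT averaged higher, and none of 7 tested was called. Summed endothelial markers overlapped as well (222 to 314 CPM in Sal-exposed and 223 to 291 CPM in control hearts, 5 of 8 listed genes, none at 0). The summed hepatocyte list was higher in every Sal-exposed heart (830 to 2423 CPM, against 300 to 606 CPM in control hearts, 6 of 8 listed genes, none at 0), carried by APOA1, which averaged 1354 CPM in Sal-exposed and 429 CPM in control hearts, while ALB averaged 22.7 CPM in Sal-exposed and 29.2 CPM in control hearts. The part of these cell types and of heart Sal 1 in the lower collagen levels was not tested beyond these values.

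**Figure D4:**
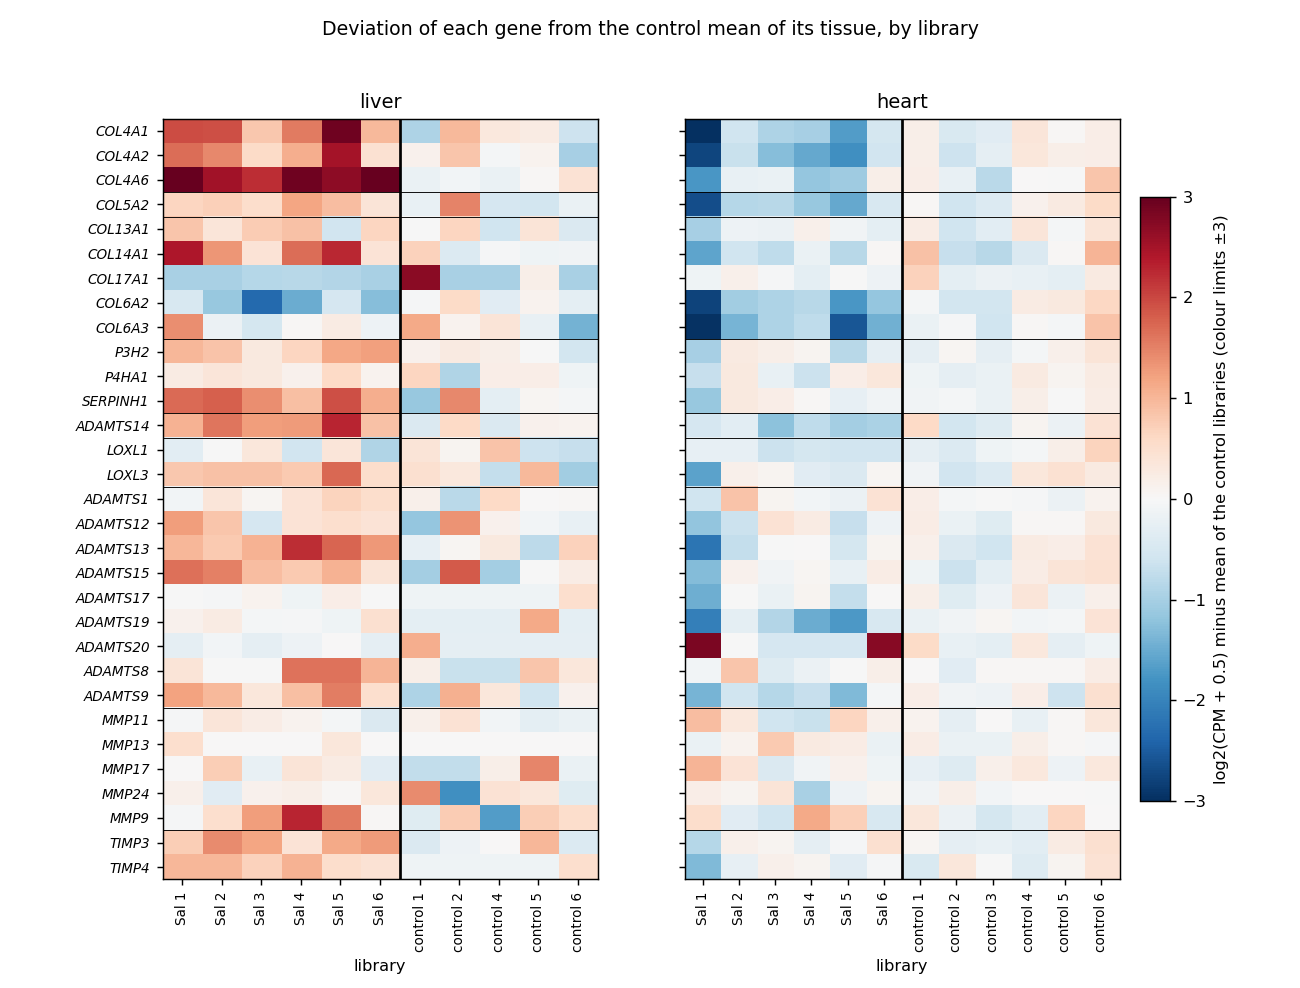
Log2(CPM + 0.5) of each member minus the mean of its tissue's control libraries, 1 column per library with Sal-exposed libraries left of the controls, colours cut at 3 and -3. The heart Sal 1 column is low for most members, and the COL4A6 row is high in all 6 Sal-exposed livers.

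Whether the Sal effect differed between the tissues was tested directly, as the effect in liver minus that in heart. Of 29 members tested, 11 passed and all were more positive in liver, against 16.6% of all 11158 genes tested (9.58% more positive and 7.02% more negative in liver). COL4A6 had the largest difference, 6.29 ± 0.84 on the log2 scale (adjusted p = 0.000126). COL4A1 had 2.86 ± 0.57 (adjusted p = 0.00254), COL4A2 2.69 ± 0.54 (adjusted p = 0.00252) and COL14A1 2.82 ± 0.73 (adjusted p = 0.0112). The fibrillar COL5A2 had 1.72 ± 0.50 (adjusted p = 0.0214).

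Of the enzymes and inhibitors, ADAMTS14 (3.89 ± 0.85, adjusted p = 0.00417), TIMP4 (3.36 ± 0.92, adjusted p = 0.0150), ADAMTS13 (1.93 ± 0.58, adjusted p = 0.0238), ADAMTS9 (1.64 ± 0.45, adjusted p = 0.0155), SERPINH1 (1.41 ± 0.46, adjusted p = 0.0338) and P3H2 (1.19 ± 0.37, adjusted p = 0.0276) passed. SERPINH1 lost its call in 8 of the 23 fits with 1 library left out. P3H2 lost it without heart control 6, with limma-voom, with surrogate variables and with liver control 3 included. COL14A1 lost it with surrogate variables and ADAMTS9 with liver control 3 included. For COL6A2, whose log2 fold change was below 0 in both tissues, the difference was 0.21 ± 0.46 (adjusted p = 0.780), and for COL6A3 it was 1.61 ± 0.62 (adjusted p = 0.0682). The median difference of the 29 members was 1.17, beside 0.07 over all genes tested.

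In control birds, most members were lower in liver than in heart. Of 29 tested, 23 passed, 21 lower and 2 higher in liver, against 47.6% of all genes tested (23.5% higher and 24.1% lower in liver), with a median log2 difference of -3.01. On the common scale COL4A1 averaged 17.4 CPM in control livers and 439 CPM in control hearts, COL6A3 3.71 CPM in control livers and 177 CPM in control hearts, and COL6A2 27.8 CPM in control livers and 159.5 CPM in control hearts. Their log2 differences were -4.66 ± 0.48 for COL4A1, -5.56 ± 0.55 for COL6A3 and -2.52 ± 0.36 for COL6A2. The members higher in control liver were COL13A1 (3.98 ± 0.44, adjusted p = 2.58e-08) and ADAMTS13 (2.62 ± 0.42, adjusted p = 8.84e-06); ADAMTS13 is made in mammals mainly by hepatic stellate cells. COL14A1 did not pass (0.61 ± 0.51, adjusted p = 0.316). The tissues were homogenised differently, which cannot be told apart from the tissue.

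A further 22 genes of the same families carried no symbol in the deposited table and were named by RefSeq position. In liver 1 of the 20 tested was called, no larger a share than the 8.36% of all genes tested: COL12A1, a fibril-associated collagen like COL14A1, had 4.22, 2.59, 1.46, 1.49, 10.1 and 2.85 CPM in Sal-exposed livers, against 1.37, 0.142, 1.49, 0.553 and 0.506 CPM in control livers (log2 fold change 2.21 ± 0.66, adjusted p = 0.0367). In heart none of the 22 was called by edgeR, with 8 at an unadjusted p under 0.05, all lower with Sal, beside 17.3% of all genes tested (8.45% lower). DESeq2 called 5 of them, limma-voom 3 and DESeq2 with surrogate variables 1, all lower, beside 301, 404 and 309 of all 10265 genes in the same order of tools. LOXL2, which cross-links type IV collagen, had 0.178 to 3.06 CPM in Sal-exposed hearts and 3.81 to 9.91 CPM in control hearts (log2 fold change -1.66 ± 0.45, adjusted p = 0.0988). P3H3 had 0.555 to 1.70 CPM in Sal-exposed and 1.88 to 3.17 CPM in control hearts (-1.21 ± 0.29, adjusted p = 0.0671).

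Other genes of collagen folding, export, binding and sensing were read from a list of 43, of which 35 were in the table. In liver 3 of 34 tested rose, beside 5.27% of all genes tested: SEC24D, a coat protein of the vesicles that carry procollagen out of the endoplasmic reticulum, LAMA5, a laminin chain of basement membranes, and SMAD2, a transducer of TGF-beta signals. SEC24D averaged 16.3 ± 2.61 CPM in Sal-exposed and 4.54 ± 1.37 CPM in control livers (SD, n = 6 and 5), with a log2 fold change of 1.84 ± 0.24 (adjusted p = 0.000813). LAMA5 averaged 19.0 ± 11.0 CPM in Sal-exposed and 2.77 ± 2.07 CPM in control livers (2.78 ± 0.59, adjusted p = 0.00946). SMAD2 had a log2 fold change of 1.501 ± 0.40 (adjusted p = 0.0245). In heart 1 of 33 tested was called, beside 0.994% of all genes tested. It was LAMB1, another laminin chain, which averaged 63.0 ± 17.2 CPM in Sal-exposed and 139.8 ± 40.5 CPM in control hearts (-1.15 ± 0.25, adjusted p = 0.0422). For liver minus heart 8 of 35 tested were called (7 more positive and 1 more negative in liver), beside 16.6% of all genes tested. Fibronectin, FN1, to which collagens bind, was among those more positive, with 2.11 ± 0.49 (adjusted p = 0.00587), and SEC13, a coat protein of the same vesicles as SEC24D, was the 1 more negative in liver (-1.18 ± 0.25, adjusted p = 0.00329).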

How the data were processed

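RNA-seq libraries of turkey heart and liver (mRNA library kit, paired reads) were analysed from the deposited table of estimated counts per gene, which the authors made with STAR and RSEM, after trimming, on Turkey_5.1 with Ensembl gene models. Strand use was not given in the sources used here. These estimated counts were rounded to whole numbers before use. Of 36 columns of per-library values, 24 matched a sample and 12 were not used. The deposited comparison tables hold the authors' log2 fold changes, p-values, Wald statistics (a score) and mean normalized counts (a signal per gene), none of which was read. Their gene positions and symbols were used. Genes without a symbol took that of a RefSeq gene of the same assembly overlapping by at least 50% of both spans.

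Groups came from the sample titles. Each tissue was fitted with edgeR 4.0.16 in R 4.3.3 (quasi-likelihood F test, TMM, filterByExpr, prior count 0.125), with Benjamini-Hochberg adjustment over all genes tested. Calls needed an adjusted p no higher than 0.05 with a change of 1 or more on the log2 scale in either direction. Error terms after a fold change are approximate standard errors, the size of the log2 fold change divided by the square root of F. The tissue by treatment term was fitted over 23 libraries taken as independent, although heart and liver came from the same birds. CPM were scaled with TMM within each fit. Gene lengths were not used, so levels of different genes are not compared. The fits were also run on simulated counts in which only well-counted genes were changed, so members with few reads were not covered. Alternatives were other scalings and filters, DESeq2 1.42.0 with and without sva 3.50.0, limma 3.58.1, a replicate block and leaving out libraries. Genes named with values were COL4A6, members called, the member with the most CPM of each class and members with an outlying value. Members whose fitted effects had opposite signs in the tissues and whose difference was called were also named. Others were named to account for all members. The members and lists were chosen with earlier results of these data known. The p-values measure the spread between birds of 1 trial, pen not being given.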

Additional observations from a re-analysis of the deposited data

Results flagged for a closer look

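Single libraries stood far from the rest of their group for 16 of 123 combinations of member and group (13.01%), judged by the gap to the nearest library divided by the group's range. About 1 in 20 would be flagged for normally distributed values. The CPM judged here need not be so distributed and include values of 0, so an excess over that rate is not claimed. In control livers these were COL5A2 (0.9129), SERPINH1 (0.7415) and ADAMTS15 (0.7843), each through control 2, then COL14A1 (0.7542), COL17A1 (0.8986) and ADAMTS20 (1) through control 1, MMP17 (0.7597), TIMP3 (0.7917) and ADAMTS19 (1) through control 5, and TIMP4 (1) and ADAMTS17 (1) through control 6. A value of 1 means that all other libraries were at 0. Control 2 held COL5A2 at 23.2 CPM and SERPINH1 at 21.1 CPM, against at most 6.86 and 7.74 CPM in the other control livers. In Sal-exposed livers the gaps were those of COL4A1 (0.6283) and LOXL3 (0.7811) through Sal 5 and of COL6A3 (0.747) through Sal 1. In heart they were ADAMTS8 (0.648) through Sal 2, at 10.03 CPM, and COL6A3 (0.6845) through control 6, at 291 CPM.

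The Sal effect differed between the tissues, by the test of liver minus heart on the log2 scale, for COL4A6 (6.292), ADAMTS14 (3.891), TIMP4 (3.358), COL4A1 (2.858), COL14A1 (2.822), COL4A2 (2.691), ADAMTS13 (1.929), COL5A2 (1.72), ADAMTS9 (1.64), SERPINH1 (1.408) and P3H2 (1.185). In each of the 11 the fitted log2 fold change was above 0 in liver and below 0 in heart, although SERPINH1 in heart turned above 0 without Sal 1, with limma-voom and with surrogate variables. None of the 11 was called in heart by the main fit, and ADAMTS14, TIMP4, COL5A2, ADAMTS9 and P3H2 were not called in liver. Some heart values lay near 0 in alternatives, as P3H2 with limma-voom (-0.0280) and ADAMTS13 with surrogate variables (-0.00128).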

How the results depend on the processing

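In heart, edgeR called 0 of 28 members, but 2 with library size alone, 7 with DESeq2, 1 with DESeq2 and surrogate variables, 5 with limma-voom, 2 without the 3 libraries over 80% mitochondrial (chosen after seeing the data) and 0 to 3 with 1 library left out. In liver, 7 were called, but 14 with DESeq2 and surrogate variables, 3 (COL4A1, COL4A6 and COL6A2) with liver control 3 included and 4 (without Sal 2) to 10 with 1 library left out. Over all genes tested, edgeR called 102 in heart and 858 in liver, DESeq2 301 and 1196, DESeq2 with surrogate variables 309 and 2435, and limma-voom 404 and 1458. In heart edgeR called 185 with library size alone and 288 without the 3 libraries over 80% mitochondrial. In liver it called 264 with liver control 3 included. Library size alone moved the median log2 fold change of all genes to -0.39 in heart, 0.16 in liver and 0.61 for liver minus heart. The difference between tissues held 9 to 13 and control tissues 23 to 24 calls with 1 library left out. In such fits the calls over all genes tested ran from 53 to 145 in heart and from 507 to 1269 in liver. They ran from 1450 to 2314 for liver minus heart and from 5166 to 5487 between control tissues. Some uncalled values changed sign: in heart with library size alone ADAMTS1 (-0.13), ADAMTS8 (-0.19), MMP11 (-0.12) and MMP17 (-0.22), with DESeq2 and surrogate variables ADAMTS15 (0.20), LOXL3 (0.10), SERPINH1 (0.13) and TIMP3 (0.23), and with limma-voom SERPINH1 (0.0575) and TIMP3 (0.12). MMP11 in liver was -0.00219 with RLE factors, -0.00251 with DESeq2, -0.0187 with the replicate block and -0.0316 without liver controls 1 and 6. COL6A2 for liver minus heart was -0.49 with DESeq2 and surrogate variables and -0.00950 with limma-voom. With 1 library left out the ranges were -0.0323 to 0.274 (ADAMTS1), -0.10 to 0.21 (ADAMTS8), -0.0212 to 0.327 (MMP17), -0.190 to 0.0440 (SERPINH1) and -0.174 to 0.0777 (TIMP3) in heart, and -0.37 to 0.49 (COL6A3) and -0.0875 to 0.145 (MMP11) in liver. The cause was not tested. Same-numbered Sal-exposed and control libraries of a tissue, which are different birds, did not deviate together (correlations -0.51 to 0.18 in heart and -0.17 to 0.08 in liver). The replicate block left 0 members called in heart, 7 in liver and 12 for liver minus heart, beside 30, 560 and 1436 of all genes tested. It joins Sal-exposed and control birds of the same number, so it does not model the bird. Whether heart and liver of the same bird deviate together was not checked. Levels per gene length were not run, since no transcript lengths were used. In control livers a count of 3 was worth 0.111 to 0.169 CPM, so values well below it rest on fewer than 3 reads.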

Other observations

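Liver control 3, left out of all comparisons for its depth, held counts for 10 of the 31 members and 0 for 21, among them COL4A6, where a count of 3 would have been 0.8045 CPM. Its highest were COL6A2 with 188 counts, TIMP3 with 86, ADAMTS9 with 77, MMP9 with 63 and COL4A1 with 42. The members at 0 numbered 0 to 3 of 31 in Sal-exposed livers and 4 to 10 in the 5 control livers used, which also had fewer genes with a count (9268 to 11055, against 10918 to 11350 in Sal-exposed livers).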
